A study of Mus musculus with 2 samples.

Results

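The positions described here are 766 cytosines of CpG dinucleotides that were methylated in less than 20 % of the reads in wt MEFs and in more than 80 % of the reads in βerko MEFs, and that lay neither in a transcript nor in a promoter of the authors' annotation. They are called hypermethylated intergenic DMPs (differentially methylated positions) below. They were selected on the methylation values of both libraries, with at least 5 reads in each, so that their methylation is a description of how they were chosen and carries no test. Of 826937 cytosine positions covered in both libraries, 2055 met both methylation limits (0.249 %), and 1960 of these had at least 5 reads in each library. The 766 intergenic positions made up 39.1 % of the 1960, beside 749 positions in introns and 445 in promoters or exons. In the opposite direction, 1119 intergenic positions were hypomethylated in βerko MEFs.

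The series compared DNA methylation in mouse embryonic fibroblasts (MEFs) of the C57BL/6 strain with intact oestrogen receptor β (wt) and without it (βerko, labelled ESR2 -/-). Both were grown in high-glucose medium with foetal calf serum, with no further treatment in the labels. Reduced representation bisulfite sequencing (RRBS) was used, in which the enzyme MspI cuts DNA at CCGG and size-selected fragments are converted with bisulfite, so that only methylated cytosines are still read as cytosine. There was 1 library per genotype, made from the pooled DNA of 3 batches, so that no spread between cultures or animals can be estimated and genotype, culture and library cannot be told apart. All comparisons below set these 2 libraries side by side. The labelled cell type cannot be checked against marker genes in methylation data.

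In mammalian cells, most CpGs away from genes are methylated, whereas CpG islands, dense runs of CpGs that often lie at gene starts, are mostly free of it. Regulatory elements between genes, such as enhancers, tend to hold few CpGs and often show low or intermediate methylation when transcription factors occupy them. Methyl groups are placed by the DNA methyltransferases and can be removed through oxidation by TET enzymes followed by excision by thymine DNA glycosylase (TDG).

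The sequences of some of these places show how different their surroundings were. Windows around 4 of the loci with most positions and around 2 single positions are given, read from the NCBIM37 (mm9) genome, plus strand, in lower case with the CpGs of the hypermethylated intergenic DMPs in capitals. The window near Zfp503, chr14:22801727-22801876, holds 6 of the 10 positions of that locus. Those near Gm5563 (chr5:120247834-120247983), Foxd1 (chr13:99136809-99136958) and AK135002 (chr4:140053305-140053454) each hold part or all of a locus. The windows near En1 (chr1:122489892-122489953) and Lama1 (chr17:68038827-68038888) are examples of positions in places with few CpGs.
Zfp503: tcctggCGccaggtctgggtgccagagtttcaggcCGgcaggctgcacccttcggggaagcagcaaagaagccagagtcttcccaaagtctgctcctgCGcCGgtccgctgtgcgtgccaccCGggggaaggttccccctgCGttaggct
Gm5563: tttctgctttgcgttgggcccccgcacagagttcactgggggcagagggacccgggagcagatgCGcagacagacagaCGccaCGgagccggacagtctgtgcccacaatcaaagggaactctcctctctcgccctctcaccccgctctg
Foxd1: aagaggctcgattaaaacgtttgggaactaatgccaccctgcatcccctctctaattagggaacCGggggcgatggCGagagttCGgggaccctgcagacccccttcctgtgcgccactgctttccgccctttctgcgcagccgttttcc
AK135002: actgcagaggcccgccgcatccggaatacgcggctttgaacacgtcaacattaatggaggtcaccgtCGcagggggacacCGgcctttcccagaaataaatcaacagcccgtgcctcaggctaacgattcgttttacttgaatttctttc
En1: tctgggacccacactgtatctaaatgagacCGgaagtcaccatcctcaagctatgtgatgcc
Lama1: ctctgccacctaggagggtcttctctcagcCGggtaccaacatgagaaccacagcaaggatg

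Methylation of the 766 positions ranged from 0 to 19.88 % in wt MEFs, with a median of 11.11 %, and from 80.25 to 100 % in βerko MEFs, with a median of 90 %. No methylated read was seen in wt MEFs at 95 positions, every read was methylated in βerko MEFs at 132 positions, and both held at 23. Coverage reached from 5 to 183 reads in wt MEFs (median 35) and from 5 to 130 reads in βerko MEFs (median 34), so that the libraries were of similar depth here. Both libraries had at least 20 reads at 483 positions (63.1 %). With 20 methylated reads of 20, the exact 95 % interval of the methylation level reaches down to 83.2 %, and with 5 of 5 reads only to 47.8 %, so that single positions at the lowest coverage are weakly determined. These intervals cover counting error only, since reads amplified in PCR are not independent molecules. Near the limits, 36 positions had between 19.0 and 19.88 % methylation in wt MEFs, and in βerko MEFs, 29 lay between 80.25 and 80.95 %. Just outside, 111 positions had 20 to 20.97 % in wt MEFs and 80 had 79.01 to 80 % in βerko MEFs, but these were counted as intergenic by gene models of the reference and with no minimum of reads, so that they cannot be set against the 36 and 29.

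**Figure D1:**
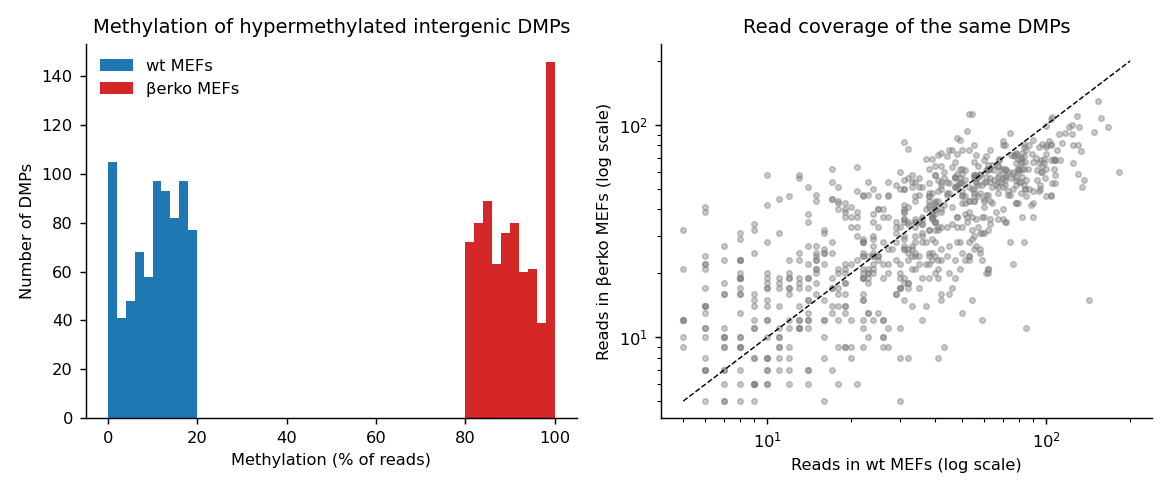
Methylation (left, percent of reads, number of DMPs in steps of 2 percentage points) and read coverage (right, log scales, dashed line of equal coverage) of the 766 hypermethylated intergenic DMPs in 1 wt and 1 βerko library. The gap between 20 and 80 % is the selection itself, and the medians of coverage are 35 and 34 reads.

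The positions with the deepest coverage show the contrast with the least counting error. The most deeply covered by the smaller of its 2 coverages lay on chromosome 17 at 69265384, nearest to the transcript AK141962 at a distance of 72019 bp. Methylated there were 19.48 % of 154 wt reads and 84.62 % of 130 βerko reads (exact 95 % intervals 13.5 to 26.6 % and 77.2 to 90.3 %). Near Gm4139 on chromosome 12, at 26355815, it was 16.28 % of 129 and 83.64 % of 110 reads. Near AK144496 on chromosome 15, at 101583042, 15.29 % of 157 and 87.04 % of 108 reads were methylated. The position at 53853216 on chromosome 13, near AK039269, had 17.14 % of 105 and 93.58 % of 109 reads. On chromosome 2, at 75103209, 49995 bp from 2600014E21Rik, the values were 13.46 % of 104 and 90.65 % of 107 reads. All 5 positions kept between 13.46 and 19.48 % methylation in wt MEFs and had at most 5 CpGs within 100 bp. Only the positions near AK039269 and 2600014E21Rik had another covered CpG within 100 bp, with 13.89 and 31.48 % methylation in wt and βerko MEFs at the former and 73.08 and 82.24 % at the latter. At neither did the neighbour differ by 20 percentage points.

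Most hypermethylated intergenic DMPs stood alone. When positions at most 500 bp apart were joined, the 766 positions formed 706 loci, of which 666 held a single position, 33 held 2 and 7 held 3 or more, with 34 positions in all. In 8 of the 33 pairs, the 2 positions were both strands of 1 CpG. The 766 positions corresponded to 753 CpGs, with 380 on the plus and 386 on the minus strand, and 5 lay in annotated repeats. Positions of a locus that have the same coverage were probably read on the same molecules and do not count as separate observations.

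The largest locus lay past the end of Zfp503, a gene for a zinc-finger repressor of transcription in embryonic development. Its 10 positions extended over 1143 bp of chromosome 14, from 22801553 to 22802695, between 489 and 1631 bp downstream of the gene model on the minus strand. Methylation ranged from 0 to 3.45 % in wt and from 85.71 to 100 % in βerko MEFs, with means of 1.31 and 95.8 % (n = 10 positions of 1 library each). At 22801849, 1.85 % of 108 wt reads and 100 % of 68 βerko reads were methylated. At 22801829 the values were 0 % of 94 and 93.88 % of 49 reads, and at 22802695 1.33 % of 75 and 91.67 % of 72 reads. The 9 other positions covered in or within 100 bp of the locus averaged 2.17 % in wt MEFs and 68.5 % in βerko MEFs. Each of them was higher in βerko MEFs, by 47.1 to 76.0 percentage points. The 6 capitalised CpGs of the Zfp503 window are thus part of a longer run in which no covered CpG kept its wt level.

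Of the other loci with several positions, some differed as a whole and some did not. Near Gm5563 on chromosome 5, from 120247898 to 120248109 and 36563 bp upstream of Tbx5, a T-box regulator of heart and forelimb development, 5 positions averaged 12.5 % in wt MEFs and 93.5 % in βerko MEFs. One of 2 other covered positions beside them was higher as well, at 24 and 86.96 %, whereas the other was at 6.45 and 22 %. Near AK135002 on chromosome 4, from 140053373 to 140053575, the means of 4 positions were 14.2 and 90.2 %, and all 6 other covered positions were higher in βerko MEFs, with means of 23.5 and 72.2 %. Near AK135377, from 152453555 to 152453999 on chromosome 4, 5 positions had means of 11.7 and 95 %, at only 6 to 8 reads in wt MEFs. Of 11 other covered positions there, 4 were higher by at least 20 percentage points and 4 were above 80 % in both libraries. Near LOC100045740, at 153193123 to 153193166 on the same chromosome, 3 positions of 2 CpGs had no methylated read among 10, 27 and 25 reads in wt MEFs and between 94.7 and 95.7 % in βerko MEFs, while 2 of the 4 others were above 80 % in both. On chromosome X, 3 positions of 2 CpGs at 79988729 to 79988743 lay 205466 bp upstream of Dmd, the dystrophin gene. They went from a mean of 13.4 to 93.8 %, and the 3 other covered positions beside them had means of 93.7 and 73.1 %. Of these others, 2 were above 80 % in both libraries, and the lowest difference was -61.5 percentage points.

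The locus at Foxd1, a forkhead transcription factor of kidney and brain development, had CpGs mostly with the opposite difference at some distance on one side. Its 4 positions, at 99136873 to 99136893 on chromosome 13 and 10213 to 10233 bp past the end of the gene, had 13.33, 15.09, 6.67 and 10 % methylation in wt and 94.12, 93.18, 100 and 88.24 % in βerko MEFs, at 30 to 53 and 17 to 44 reads. The 5 other positions covered up to 151 bp from the middle of the locus had means of 45.8 % in wt and 84.6 % in βerko MEFs. Farther out on one side, between 414 and 945 bp, 16 covered positions had means of 20.2 and 4.21 %, and 14 of them were lower in βerko than in wt MEFs.

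The Fam46b, Sepp1 and Nos1 loci of 2 positions had larger mean differences than the other pairs. At Fam46b on chromosome 4, 1055 bp upstream of its start, both strands of 1 CpG had 0 % of 19 and 5.88 % of 17 reads methylated in wt MEFs, and 100 % of 18 and 97.78 % of 45 reads in βerko MEFs. At Sepp1, which encodes the selenium transport protein selenoprotein P, both strands of a CpG 582 bp upstream of the nearest start had no methylated read among 38 and 61 in wt MEFs, and 95.65 % of 46 and 90.14 % of 71 reads methylated in βerko MEFs. At Nos1, the neuronal nitric oxide synthase gene, 2 positions that lie inside a transcript of the reference gene models had 9.09 and 0 % of 11 reads methylated in wt MEFs and 100 % of 9 reads in βerko MEFs. The other covered CpGs beside the Fam46b and Sepp1 pairs were at means of 84.3 and 82.6 % in wt MEFs and 88.2 and 93.3 % in βerko MEFs. These CpGs were therefore unmethylated in wt MEFs within surroundings that were methylated in both.

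**Figure D2:**
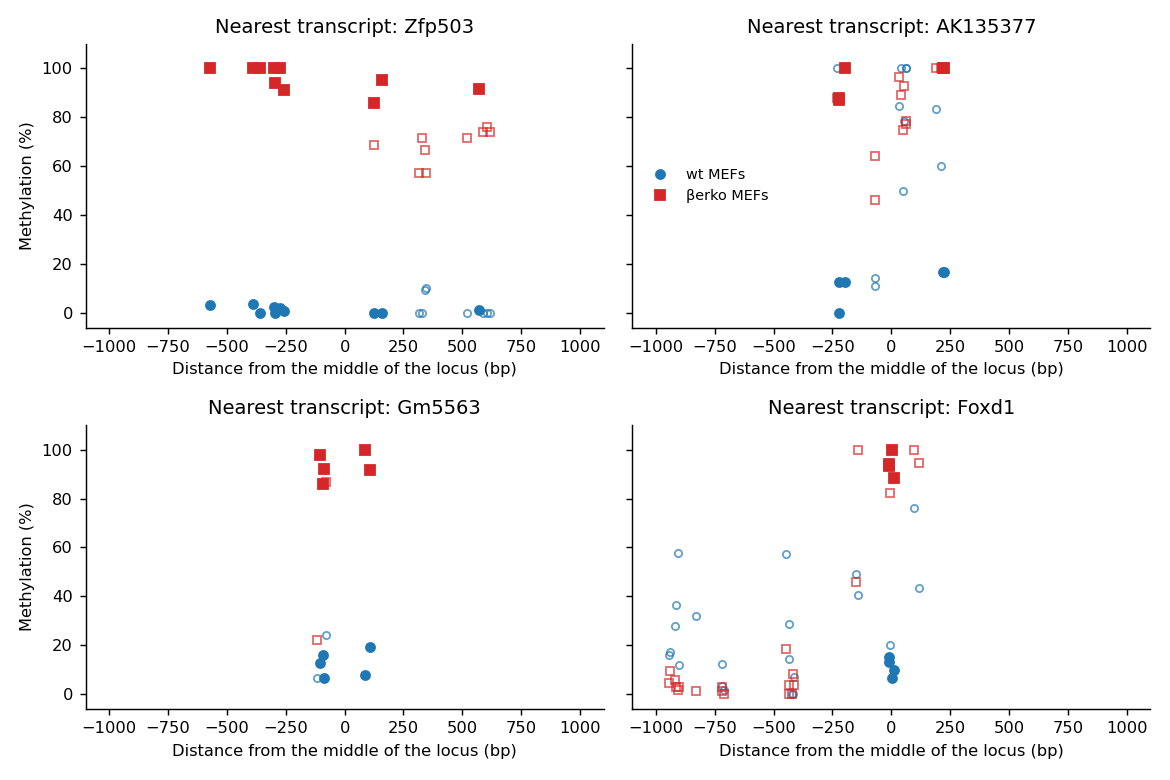
Methylation of the covered CpGs around the 4 loci with most hypermethylated intergenic DMPs, against the distance in bp from the middle of the locus, in wt (blue circles) and βerko MEFs (red squares). Filled symbols are the selected DMPs and open symbols other covered positions. Near Zfp503 the open symbols are also far apart (means 2.17 and 68.5 %), whereas near AK135377 many are high in both libraries.

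Apart from those that are themselves among the 766, the CpGs around these positions had not been selected, although they were read in the same libraries and often on the same molecules. Those among the 766 were counted as neighbours too, so that part of the values below is fixed by the selection. Other CpGs were covered within 100 bp of 474 positions, with a median of 1 covered neighbour, and none were covered at 292. Median methylation of the neighbours was 54.3 % in wt MEFs and 84.8 % in βerko MEFs. Subtracting wt from βerko gave a median of 15.8 percentage points (quartiles 2.19 and 39.9). The neighbourhood was higher in βerko MEFs by at least 20 points at 210 of the 474 positions (44.3 %), against 3.84 % of all covered positions with neighbours and 9.0 % of the intergenic ones. It differed by less than 20 points at 247 positions (52.1 %, 95 % Wilson interval 47.6 to 56.6 %) and was lower in βerko MEFs at 17. The interval treats the positions as independent, although some share a locus and its reads, and it covers no spread between cultures. With 1 position per locus, the share that differed by less than 20 points was 56.5 %. Neighbours of hypermethylated intronic DMPs gave much the same values, with a median difference of 18.2 points and 46.9 % higher by 20 points. Around hypomethylated intergenic DMPs the median difference was -43.0 points, and 25 % of the neighbourhoods differed by less than 20 points. No test was made between these groups, since all values come from the same contrast.

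The 247 neighbourhoods that differed by less than 20 points were more often highly methylated than unmethylated in both libraries. At 120 of the 474 positions (25.3 %) the neighbours were above 80 % in both, with medians of 92.0 % in wt MEFs and 96.2 % in βerko MEFs, at 13 (2.74 %) they were below 20 % in both, and at 114 they met neither limit in both. Over all covered intergenic positions the corresponding shares were 38.9 and 17.2 %. In the 210 neighbourhoods higher in βerko MEFs, the medians were 33.3 % in wt and 85.2 % in βerko MEFs. Near Foxn4, a forkhead regulator of retinal development, the position at 114731964 on chromosome 5 had 0 % of 41 reads methylated in wt MEFs and 83.64 % of 55 reads in βerko MEFs, beside 2 neighbours at means of 90.8 and 99.4 %. Near Lama1, which encodes a laminin chain of basement membranes, the values at 68038858 on chromosome 17 were 18 % of 50 and 94.34 % of 53 reads, beside 2 neighbours at means of 93.3 and 92.2 %.

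The difference at other CpGs, selected ones included, decreased with distance up to 100 bp from the position. At 1 to 10 bp, the mean was 45.3 % in wt MEFs and 77.9 % in βerko MEFs, a difference of 32.6 percentage points (119 positions with such neighbours). It was 28.7 points at 11 to 25 bp, 20.5 points at 26 to 50 bp and 12.6 points at 51 to 100 bp. Beyond this, it did not fall steadily, with 16.2, 17.3 and 11.8 points at 101 to 250, 251 to 500 and 501 to 1000 bp. Mean methylation in βerko MEFs stayed between 73.8 and 77.9 % up to 500 bp, so that the course was mainly that of the wt values. Around hypomethylated intergenic DMPs the difference went from -54.8 points at 1 to 10 bp to -34.2 points at 51 to 100 bp and -17.7 points at 501 to 1000 bp.

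**Figure D3:**
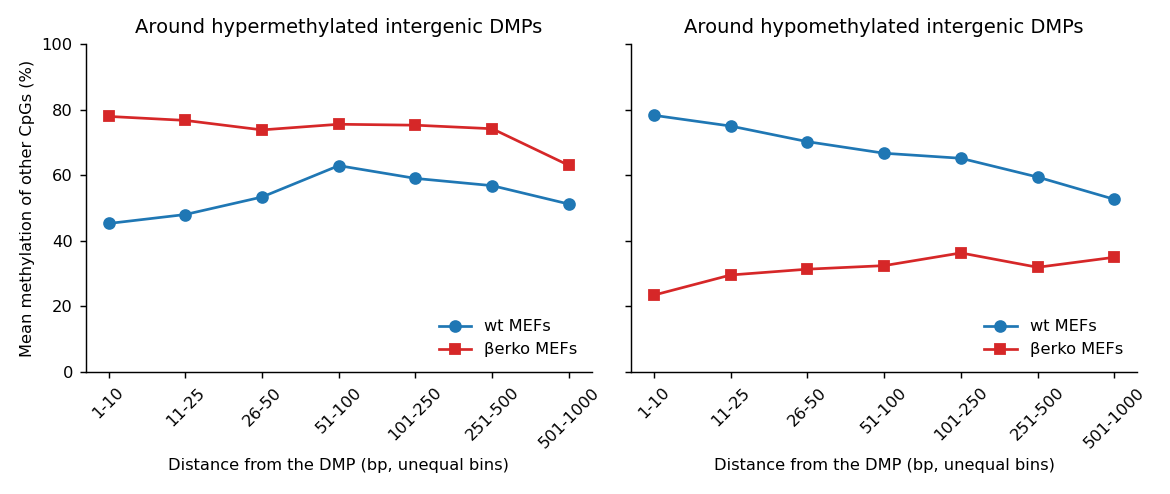
Mean methylation (%) of other covered CpGs, selected ones included, in wt (blue circles) and βerko MEFs (red squares) by distance in bp from hypermethylated (left) and hypomethylated intergenic DMPs (right), in unequal bins, each DMP counting once in a bin. On the left, the lines are 32.6 percentage points apart at 1 to 10 bp and 12.6 at 51 to 100 bp.

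The opposite strand of the same CpG was covered at 75 of the 766 positions, by other reads than those of the position itself. Its median was 15.1 % in wt MEFs and 90.1 % in βerko MEFs, and the difference had a median of 65.6 points (quartiles 42.7 and 80.1). The opposite strand was higher in βerko MEFs by at least 20 points at 65 of the 75 positions, against 5.18 % of the 141334 covered positions with both strands covered. The difference was under 20 points at 10 positions, the smallest being 0.0. Of the 75, 26 were themselves among the 766, as the 2 strands of 13 CpGs. At these 26 the difference was fixed by the selection, so that part of the 65 and of the median was given in advance.

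Hypermethylated intergenic DMPs lay in sequence with few CpGs. Within 100 bp to each side, the median number of CpGs was 4 with the position's own, compared with 6 over all covered intergenic positions, 7 around hypomethylated intergenic DMPs and 15 around intergenic positions below 20 % in wt MEFs. At 61 positions, such as the one near En1, the window held no other CpG. At 343 positions (44.8 %) it held at most 3 CpGs, against 21.1 % of covered intergenic positions and 16.6 % of hypomethylated intergenic DMPs. At least 10 CpGs were found at 47 (6.14 %), against 28.6 and 33.9 %, and at least 20 CpGs at none of the 766 and 9.03 % of covered intergenic positions. The median GC content of the window was 52 %, compared with 54.0, 55.4 and 64.4 % in covered intergenic positions, hypomethylated intergenic DMPs and intergenic positions below 20 % in wt MEFs. Of these groups, intergenic positions above 80 % in both libraries had the closest medians, with 5 CpGs and 52 % GC. Their CpG numbers were still higher, with at most 3 CpGs at 24.9 % and at least 10 at 14.9 %. Hypermethylated intronic DMPs also had a median of 4 CpGs.

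The share of intergenic CpGs that went from low to high fell with this number. Here, intergenic was defined by gene models of the reference and read coverage was not considered, so that the counts include positions outside the 766. Of 512 positions below 20 % in wt MEFs with no other CpG within 100 bp, 65 were above 80 % in βerko MEFs (12.7 %). With 2 to 3 CpGs the share was 11.6 % (329 of 2847), with 4 to 6 it was 6.71 %, with 7 to 9 3.10 %, with 10 to 19 0.548 %, and with 20 or more 0.113 % (14 of 12340). In the opposite direction, the share of positions above 80 % in wt MEFs that were below 20 % in βerko MEFs was 1.25 % with 1 CpG, 0.920 % with 2 to 3 and 1.09 % with 4 to 6, and reached 3.58 % with 10 to 19 and 14.2 % with 20 or more (154 of 1087). The shares of gain and loss thus ran in opposite directions with CpG number, each over its own base of positions low or high in wt MEFs. These bases also changed, from 512 low and 2952 high positions with 1 CpG to 12340 low and 1087 high with 20 or more. In number, losses occurred in every class, with 389 at 4 to 6 CpGs, where there were 319 gains. The 766 positions themselves had class medians of 6.25 to 13.33 % in wt and 89.3 to 91.4 % in βerko MEFs. The limits of the selection hold these medians in a narrow range, so that they cannot show whether methylation depends on CpG number.

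**Figure D4:**
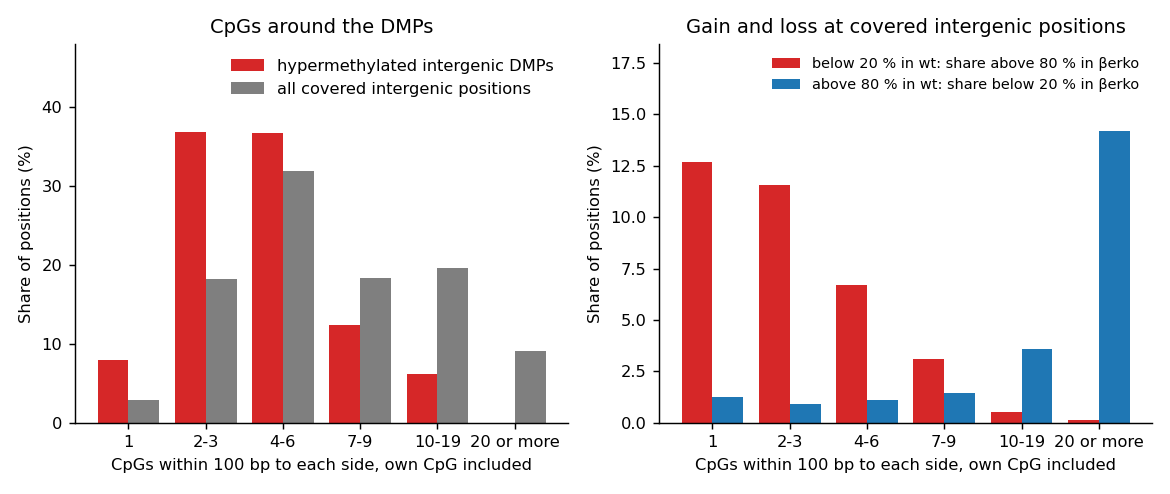
Left, share (%) of the 766 hypermethylated intergenic DMPs (red) and of the 178759 covered intergenic positions (grey) by the number of CpGs within 100 bp to each side. Right, share (%) of covered intergenic positions below 20 % in wt that were above 80 % in βerko MEFs (red), and of those above 80 % in wt that were below 20 % in βerko MEFs (blue). The red bars go from 12.7 to 0.113 % and the blue bars from 1.25 to 14.2 % between the first and last class.

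The restriction site was common among the positions. Of the 766 positions, 568 (74.2 %) were the CpG of a CCGG site, where MspI cuts and RRBS fragments end, against 52.9 % of covered intergenic positions, 60.1 % of hypomethylated intergenic DMPs and 74.4 % of hypermethylated intronic DMPs. This share was higher where there were fewer CpGs, among the 766 and among covered intergenic positions. With 2 to 3 CpGs the share in CCGG was 89.0 % of the positions and 81.1 % of covered intergenic positions, with 4 to 6 CpGs 70.5 and 60 %, with 7 to 9 CpGs 45.3 and 44.0 %, and with 10 to 19 CpGs 31.9 and 32.2 %. End repair fills in the ends of MspI fragments with unmethylated cytosine before bisulfite treatment, and its part in the values at these sites was not tested.

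The positions were also far from genes. The nearest transcript start in the authors' annotation was at a median of 25490.5 bp (range 542 to 660902 bp), compared with 11154 bp at hypomethylated intergenic DMPs. Measured to the nearest start of a protein-coding gene in the reference gene models, the median was 45861 bp, against 19671 bp at hypomethylated intergenic DMPs and 34771 bp over all covered intergenic positions. Within 10 kb of such a start lay 142 positions (18.5 %), against 35.0 and 24.4 %, and more than 100 kb away lay 254 (33.2 %), against 15.3 and 27.0 %. Intergenic positions above 80 % in both libraries lay at similar distances. Their median was 43987 bp, with 17.6 % within 10 kb and 30.8 % more than 100 kb away. In these gene models, 730 of the 766 positions were also intergenic, and 36 fell in a transcript or next to a start. One of the latter was the position near Hoxc6, a homeobox gene of the HoxC cluster, at 102831107 on chromosome 15, which lies 147 bp downstream of a Hoxc6 start in the reference. There, 18.75 % of 32 reads were methylated in wt MEFs and 82.14 % of 56 reads in βerko MEFs, with 37.5 and 100 % on the opposite strand.

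The nearest transcripts belonged to 639 genes, of which 555 had 1 position. The genes with 4 or more were Zfp503 with 10, Gm5563 with 8, Gm7538, Dmd and AK135377 with 5, and Barx1, 4930404F17Rik, LOC100045740, AK135002 and Foxd1 with 4. Barx1 encodes a homeobox factor of tooth and stomach development. Its 4 positions lay in 3 places between 5701 and 101447 bp from the start, with 4 to 15.38 % methylation in wt and 82.5 to 100 % in βerko MEFs. The neighbours of the pair at 48764068 and 48764070, which count each other, were higher in βerko MEFs by 38.3 and 36.6 points. At 48826898, with 8 and 9 reads, the 15 covered neighbours had the opposite difference, with means of 48.6 and 20.6 %. Near 4930404F17Rik, the 4 positions were in 2 loci of chromosome 5, with 0 to 17.95 % of 55 to 78 reads in wt MEFs and 82.43 to 94.83 % of 58 to 74 reads in βerko MEFs. Further positions of Dmd lay at 80033422 and 80033620, at least 160589 bp upstream of its start. There, no read was methylated among 12 and 14 in wt MEFs, and 100 and 85.71 % of 11 and 7 reads were in βerko MEFs.

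By the nearest protein-coding gene, 119 of the 766 positions (15.5 %) lay closest to a gene of 13 lists of developmental regulators and signalling or matrix genes. The share was 11.5 % of covered intergenic positions and 27.3 % of hypomethylated intergenic DMPs. It was 14.5 % of covered intergenic positions below 20 % in wt MEFs. With each locus of the 766 counted once, it was 14.0 %, so that the share by locus was not above that of positions low in wt MEFs. Homeobox genes were nearest to 35 positions (4.57 %, against 3.03 and 7.60 %, and 4.03 % of those below 20 % in wt MEFs), spread over 26 genes. Six2, a homeobox factor of kidney progenitor cells, had 4 of them. The nearest lay 947 and 1139 bp upstream of its start, with 9.68 % of 31 and 12.9 % of 31 reads methylated in wt MEFs and 89.74 % of 39 and 96.67 % of 30 reads in βerko MEFs. The 18 neighbours of the former had means of 44.5 and 51.5 %, and the 6 of the latter 56.2 and 76.0 %. En1, a homeobox factor of midbrain and limb patterning, had 1 position 9072 bp upstream of its start, with 7.5 % of 40 and 86.36 % of 44 reads. T-box genes were nearest to 18 positions in 13 loci (2.35 %, against 0.393 and 1.07 %), with 9 at Tbx5, 8 at Tbx3 and 1 at Eomes.

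In the remaining lists, the share of the 766 positions lay above that of covered intergenic positions for some and below it for others. Krueppel-like factors, the Zfp503 family and other zinc-finger regulators were nearest to 19 (2.48 %, against 1.23 % of covered intergenic positions), of which 10 were those of Zfp503. This list names the family of Zfp503 and was made with earlier results known, so that this share is no independent observation. By locus it was 1.42 %, beside 1.78 % of covered intergenic positions below 20 % in wt MEFs. Forkhead factors were nearest to 9 (1.17 %, against 0.666 % of covered intergenic positions), of which 4 were those of Foxd1, and by locus the share was 0.850 %. Extracellular matrix genes had 7 (0.914 %, against 0.693 %) and basic helix-loop-helix factors also 7 (against 1.00 %). With 5 positions each (0.653 %) followed the Pax, Gata, Zic, Gli and Runx families (against 0.691 %), FGF, hedgehog, Notch and retinoid signalling (against 0.594 %) and axon guidance (against 0.836 %). Sox factors and the Wnt pathway had 3 each (0.392 %, against 0.361 and 0.660 %). Nuclear receptors had 2, Ppara and Thrb (0.261 %, against 0.624 %), and the TGF-beta and BMP pathway 1 (0.131 %, against 0.727 %). Among the axon guidance genes was Sema6b, a transmembrane semaphorin, with 8.06 % of 62 reads methylated in wt MEFs and 80.65 % of 62 reads in βerko MEFs 1165 bp upstream of its start, beside 2 neighbours at means of 50 and 49.8 %. No position lay nearest to the target genes that the study followed up by name, such as Dyx1c1, Hoxa9, Hoxa10 or Tnfaip2. The paper places the DMPs of these named genes in promoter regions, which the selection left out. It also reports hypermethylation by restriction digest at an intergenic DMP, listed without a gene name. Whether that DMP is among the 766 was not tested.

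On chromosome 5, positions accumulated around the T-box genes, a region singled out after its values had been seen. Between 119253892 and 120693793, a stretch of 1440 kb that holds Tbx3 and Tbx5, 26 positions in 20 loci were nearest to Med13l (6), Tbx3 (8), Tbx5 (9) and Rbm19 (3). This amounted to 514 per 10000 covered intergenic positions, of which there were 506, compared with 42.9 per 10000 over all chromosomes. Hypomethylated intergenic DMPs numbered 8 in the same stretch. Methylation of the 26 positions ranged from 0 to 19.23 % in wt (median 11.4 %, median coverage 37 reads) and from 80.65 to 100 % in βerko MEFs (median 90.5 %, 44 reads). Over the 480 covered intergenic positions without the 26, the mean was 56.8 % in wt MEFs and 62.6 % in βerko MEFs. The neighbourhood, selected positions included, was higher by at least 20 points at 11 of the 17 positions with neighbours. In the part far upstream of Tbx3, between 341080 and 497145 bp from its start, the 5 positions nearest to the transcripts of Gm7538 had 6.67 % of 60, 14.89 % of 94, 6.25 % of 32, 11.69 % of 77 and 16.42 % of 67 reads methylated in wt. In βerko MEFs, these were 100 % of 45, 89.39 % of 66, 100 % of 35, 88.73 % of 71 and 87.5 % of 48 reads.

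Chromosomes differed in how often such positions occurred. Chromosome 4 held 120 of the 766 (15.7 %) but 6.28 % of covered intergenic positions, or 107 per 10000. Chromosome X had 94.6 per 10000 (52 positions) and chromosome 5 had 68.4 (85 positions), whereas chromosomes 18 and 3 had 17.8 and 19.9. Of intergenic positions below 20 % in wt MEFs, 7.98 % on chromosome X, 5.36 % on chromosome 4 and 4.12 % on chromosome 5 were above 80 % in βerko MEFs, against 2.55 % on all chromosomes. Those on chromosome X more often had at most 3 CpGs around them (20.7 %, against 11.7 % on chromosome 4 and 10.8 % on chromosome 5). On chromosome 2, 12.1 % had at most 3 CpGs and 2.18 % were above 80 % in βerko MEFs. The part of CpG number in these chromosome values was not tested. Hypomethylated intergenic DMPs were also frequent on chromosomes 4 and X, but chromosome 9 had 48 hypermethylated and 16 hypomethylated ones. In windows of 5 Mb, 303 of 539 held at least 1 of the 766, and the 12 windows with most loci held 17.6 % of the loci and 5.62 % of covered intergenic positions. The 12 were picked for their number of loci, so that the larger share of loci follows from the choice and shows no clustering. Of these 12, 5 lay on chromosome 4 and 3 were adjacent on chromosome 5, from 110 to 125 Mb, with 14, 17 and 9 loci. Karyotypes of the cells were not analysed here, the labels do not give the sex of the embryos, and the part of chromosome number in these values was not tested.

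**Figure D5:**
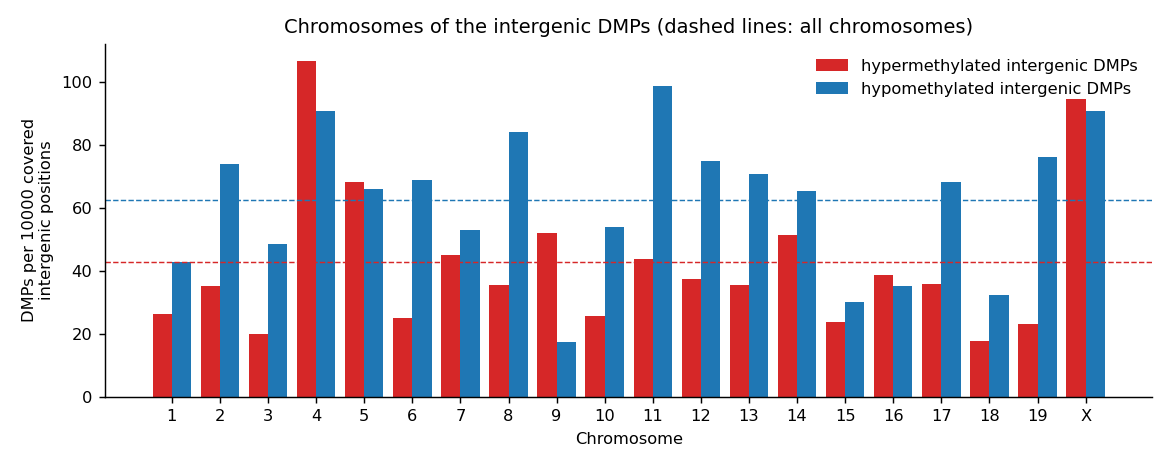
Hypermethylated (red) and hypomethylated (blue) intergenic DMPs per 10000 covered intergenic positions on each chromosome, with dashed lines for all chromosomes (42.9 and 62.6). Chromosome Y held no hypermethylated intergenic DMP and is not drawn. Chromosome 4 (107) and chromosome X (94.6) stand above the other chromosomes for the hypermethylated DMPs.

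Words of transcription factors were counted within 100 bp of each CpG on both strands, as matches of letters and not as bound sites. The complete oestrogen response element, GGTCA and TGACC with 3 bases between, was found at none of the 766 positions and at 0.0134 % of covered intergenic positions. The form with 2 bases between, searched without mismatches only, was found at none of the 766 either. With at most 1 mismatch, the form with 3 bases between was found at 6 positions (0.783 %), against 0.590 % of covered intergenic positions, 1.07 % of hypermethylated intronic and 0.447 % of hypomethylated intergenic DMPs. These 6 are printed from the NCBIM37 plus strand because they hold the words closest to the receptor's own that this search found. The word and the CpG of the DMP are in capitals at each of the 6. They lie at chr2:159603926-159603965, chr4:44406126-44406188, chr5:38972639-38972715, chr9:102319771-102319864, chr11:116856115-116856189 and chr13:44161209-44161250, in this order.
4933416E03Rik: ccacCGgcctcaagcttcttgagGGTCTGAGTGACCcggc
Melk: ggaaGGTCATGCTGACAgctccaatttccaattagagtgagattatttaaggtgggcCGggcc
4930421P07Rik: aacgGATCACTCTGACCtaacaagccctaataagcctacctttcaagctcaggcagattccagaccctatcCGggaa
Ephb1: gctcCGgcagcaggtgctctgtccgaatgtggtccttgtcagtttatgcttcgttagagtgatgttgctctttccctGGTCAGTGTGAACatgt
Gm11728: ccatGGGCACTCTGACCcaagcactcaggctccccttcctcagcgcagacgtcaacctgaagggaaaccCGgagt
AK146979: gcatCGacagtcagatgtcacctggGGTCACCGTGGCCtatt

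Among these 6, the position near 4930421P07Rik on chromosome 5 was the most deeply covered, with 13.39 % of 112 reads methylated in wt MEFs and 88.24 % of 68 reads in βerko MEFs, 61 bp from the middle of the word. Near Ephb1, a receptor tyrosine kinase of axon guidance, the values were 15.79 % of 19 and 95.45 % of 22 reads, and near Melk, a cell-cycle kinase, 0 % of 9 and 93.33 % of 15 reads. The other 3 had 6 to 12 reads in wt MEFs and 6 to 13 reads in βerko MEFs.

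The short element AGGTCA, 1 arm of the response element, lay near 10.4 % of the 766 positions and 10.1 % of covered intergenic ones. The E-box CAGCTG, which the myogenic and related factors bind, was found at 14.8 %, against 11.9 % of covered intergenic positions, 14.2 % of hypermethylated intronic and 13.9 % of hypomethylated intergenic DMPs. The AP-1 word TGANTCA was found at 5.09 % and 4.64 %, and the TEAD word GGAATG at 11.5 and 10.6 % of the 766 and of covered intergenic positions. The E-box CACGTG and the AP2 word GCCNNNGGC, of which the former holds a CpG, were found at 2.48 and 8.75 %, against 3.73 and 12.6 %. For AP2, the share was 22.2 % in intergenic positions below 20 % in wt MEFs, whose GC content was higher. Words may overlap one another, and no test was made of these shares.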

How the data were processed

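RRBS libraries of wt and βerko MEFs (1 each, 19 PCR cycles, fragments of 160 to 340 bp) were sequenced on an Illumina Genome Analyser IIx, with CASAVA 1.4 in the submitters' processing notes, and aligned to mm9 on the Genomatix Mining Station. The authors deposited 1 table that gives, for cytosines seen in both libraries, the percent of methylated reads. They also deposited read counts (coverage) at DMPs with their RegionMiner annotation. No column was left without a sample. Percent times coverage gave whole reads at all 766 positions, within 0.02 percentage points. All 826937 positions were cytosines of CpGs in NCBIM37, whose GENCODE vM1 gene models gave the intergenic background (no transcript, and outside a window of 500 bp before to 100 bp after a start). Coverage outside DMPs was not used here.

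The members and lists were chosen with earlier results of these data known. Members had less than 20 % methylation in wt, more than 80 % in βerko MEFs and at least 5 reads in both. Loci joined members at most 500 bp apart, and neighbours, other members included, lay within 100 bp, each cytosine counting once. Named were the 10 loci with most members, genes nearest to at least 4 members, the 12 most deeply covered members within 10 kb of a listed gene, the 5 most deeply covered members, members with an oestrogen response element (complete or with at most 1 mismatch), and members at the study's target genes. No group test was made, since 1 library per genotype gives no replicate check. Intervals are exact (Clopper-Pearson) for single positions and Wilson for shares, at 95 %. Scripts were tested on simulated data. Alternatives changed coverage, thresholds, annotation, strands, windows and gaps. Calculations used Python 3.11.15 with SciPy 1.17.1, pysam 0.24.0 for the genome, pandas 2.3.3 and NumPy 2.4.6 for tables, and matplotlib 3.10.9.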

Additional observations from a re-analysis of the deposited data

How the results depend on the processing

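Of 32 values computed under alternatives, 23 were labelled as close to the reported one and 9 as moved. The number of hypermethylated intergenic DMPs was 483 with at least 20 reads and 156 with thresholds of 10 and 90 %, and ranged from 650 to 871 under the other alternatives. The share of neighbourhoods that differed by less than 20 percentage points was 44.2 % within 50 bp and 57.1 % within 500 bp, and 34.4 or 63.5 % when the limit was 10 or 30 points. The median neighbour difference was 21.7 points within 50 bp. The median number of CpGs was 8 within 250 bp, and the E-box CAGCTG was found at 6.53 % within 50 bp, both by construction of the window. The number of loci with 3 or more positions was 6 or 7. No paired analysis was possible because each genotype has 1 library and the values come from no test. Depth limits single positions: with no methylated read among 5, the level may still be up to 52.2 %, and among 20 up to 16.8 %.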
